A study of Mus musculus with 3 samples.

Results

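The promoters of long intergenic noncoding RNAs (lincRNAs) were examined for regions enriched in H2A.Z and in trimethylated lysine 27 of histone H3 (H3K27me3) in mouse embryonic stem cells (ESCs). Members were the genes typed lincRNA in the GENCODE vM1 annotation of the mm9 assembly whose most upstream start lay more than 2 kb from every start of a protein-coding transcript. This left 618 of 1273 lincRNA genes, against 37252 promoters of annotated genes of all kinds in the same genome. The window was 2 kb on each side of the start, 4001 bp in all, and a promoter was called for a library when at least 1 bp of the window lay in a region of that library's list at a threshold of 1e-9.

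ChIP-Seq was performed on 3 libraries, 1 per group. H2A.Z WT and H2A.Z AP3 came from transgenic ESCs that had been derived, per the treatment text, from KH2 cells by lentiviral infection, induced with doxycycline and sorted for fluorescence. Each carried a YFP-tagged H2A.Z under an inducible CMV promoter, either wild type or AP3, in which 3 residues of the acidic patch, a surface of the nucleosome, were replaced by their H2A counterparts. A short hairpin to the 3′ untranslated region lowered the cells' own H2A.Z. Both were immunoprecipitated with an antibody against GFP. The third library used an antibody against H3K27me3 in cells whose genotype is labelled WT. The labels give the V6.5 strain (129SvJaexC57BL/6) for all 3 samples. The lists give coordinates only, namely 78359 regions over 28.3 Mb (H2A.Z WT), 14599 over 3.50 Mb (H2A.Z AP3) and 16970 over 9.32 Mb (H3K27me3). The read depth behind them is unknown. With 1 library per group the spread between cultures was not measured, and no test was made. Intervals are 95% Wilson intervals for shares and Newcombe intervals for differences between shares. They cover counting error only, treat promoters as independent, and were not adjusted over the 49 differences computed.

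LincRNAs are spliced or unspliced transcripts without a long open reading frame. Some act in X inactivation, imprinting or the control of neighbouring genes, others host microRNAs or small nucleolar RNAs (snoRNAs), and most have no known function. H2A.Z is a variant of histone H2A placed in the nucleosomes that flank active and poised start sites. H3K27me3 is deposited by Polycomb repressive complex 2 and in ESCs covers CpG-rich promoters of silent developmental regulators. Many of those promoters also carry H3K4me3 and are called bivalent. H3K4me3 was not analysed here, so no promoter could be called bivalent from these lists.

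The sequence around starts is shown first because calls were more frequent where CpG content was higher. Each line below gives the 30 bases with most CpG dinucleotides within 500 bp of the start, on the transcribed strand, 5′ to 3′, with the CpG dinucleotides in capitals. The first 3 members were among those with most H3K27me3, and the next 3 had most H2A.Z AP3. The last 2 were known lincRNAs without a call, picked for low CpG content (observed over expected below 0.3). Their few CpG dinucleotides therefore follow from the choice. Xist, also a known lincRNA without a call, had a value of 0.738 and is not shown.
Six3os1, chr17:86017525-86017554, minus strand: CGCGaccctaccCGgctCGggccCGcagca
Dlx1as, chr2:71375562-71375591, minus strand: CGctttgctgcCGcagCGgctccCGctcCG
A430072P03Rik, chr5:108154425-108154454, plus strand: CGCGctgggtctgCGCGtcagcaccaCGCG
Gm17395, chr6:128793595-128793624, plus strand: caCGccCGaccctcaCGcctgcccaCGcCG
F630040L22Rik, chr9:108006862-108006891, plus strand: caaacaaaCGaaCGaaCGaacaaatgaaCG
1700023L04Rik, chr6:29935452-29935481, plus strand: ggCGgcacaaCGcCGgtgagagCGctCGCG
Rmst, chr10:91627423-91627452, minus strand: caattcccaggaCGgcaagagggggaacCG
Sox2ot, chr3:34003368-34003397, plus strand: tatgCGgctgactctccatgctctCGctCG
The stretches of the first 6 hold 4 to 6 CpG dinucleotides, and those of Rmst and Sox2ot hold 2 and 3. Six3os1 and F630040L22Rik start in an intron of a protein-coding gene and the other 6 in intergenic sequence. Over the whole 1001 bp around the start, A430072P03Rik held 67 CpG dinucleotides and Six3os1 held 56, whereas Rmst and Sox2ot held 9 each. CpG content is given below as the observed number over that expected from the C and G in the same 1001 bp.

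The label was checked against the annotation. The median distance to the nearest protein-coding start was 22361.5 bp, and 545 of 618 members lay more than 4 kb from one. However, 227 members (36.7%) started inside the body of a protein-coding gene, 149 in an intron and 78 in an exon. The members were thus not all intergenic. The limit of 2 kb concerned starts of protein-coding transcripts only. Counting every annotated start of protein-coding genes, 591 of the 618 lay more than 2 kb away. Starts of other gene types were not excluded. Their windows formed 608 separate loci, since 19 members shared sequence with another. Most were anonymous transcripts, with 384 Gm and 188 Rik names, and 460 had a single annotated transcript.

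H2A.Z WT was the library called most often at lincRNA promoters. It was called at 264 of 618 (42.7%, interval 38.9 to 46.65), where 44.0% of the promoters of all annotated genes, 58.9% of 22342 protein-coding promoters and 7.98% of 585151 non-promoter tiles of the same size were called. H2A.Z AP3 was called at 93 (15.05%, 12.45 to 18.1), against 14.8% of all promoters, 20.8% of protein-coding promoters and 1.35% of tiles. H3K27me3 was also called at 93 members, against 12.2% of all promoters, 16.9% of protein-coding promoters and 0.69% of tiles. The shares of lincRNA promoters were thus near those of all annotated promoters, and at least 5-fold above those of the tiles. CpG content was not matched here, since 90.4% of tiles and 48.1% of members had a value below 0.3. Shares of tiles by CpG class are given below. The tiles lay away from protein-coding and lincRNA starts, but starts of other annotated genes were not excluded from them. At 326 members no library was called.

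Compared with protein-coding promoters, lincRNA promoters were called less often for both forms of H2A.Z. The difference was -16.2 percentage points for H2A.Z WT (-20.1 to -12.2), with the lincRNA share lower on 20 of 20 chromosomes. It was -5.76 points for H2A.Z AP3 (-8.42 to -2.68), lower on 14 of 20 chromosomes. For H3K27me3 the difference was -1.87 points and its interval, -4.52 to 1.21, included 0. The 655 lincRNA genes that started within 2 kb of a protein-coding start, left out here, had an H2A.Z WT region at 81.1%, an H2A.Z AP3 region at 31.45% and an H3K27me3 region at 33.7%. Their windows hold the neighbouring coding promoter as well.

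On both sides of the limit of 2 kb, promoters ranged from no call to long coverage. The member nearest to the limit, 9330158H04Rik (2107 bp from Chrm2), was covered over 1735 bp by H2A.Z WT, 175 bp by H2A.Z AP3 and 1960 bp by H3K27me3. The next members outward ranged from Gm17242, with 2643 bp of H2A.Z WT and 3008 bp of H3K27me3, to Gm17480 with no call. Among those nearest to the limit but left out, Gm15053 (1895 bp from Hoxa13) had 857 bp of H2A.Z WT and 3369 bp of H3K27me3, and 4930528D03Rik had no call.

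The CpG content of lincRNA promoters was lower than that of coding ones. Its median was 0.313 at lincRNA promoters, 0.553 at protein-coding promoters and 0.156 in tiles. Of the members, 297 had a value below 0.3, 209 lay from 0.3 to 0.6 and 112 (18.1%) reached 0.6 or more, the last class holding 46.0% of protein-coding promoters. H2A.Z WT was called at 23.9%, 52.6% and 74.1% of lincRNA promoters in these classes, from low to high. H2A.Z AP3 was called at 5.72%, 22.97% and 25%, and H3K27me3 at 5.05%, 17.7% and 36.6%. The shares of all 3 libraries at lincRNA promoters thus rose from the low to the high class. For H2A.Z AP3 the intervals of the middle (17.8 to 29.1) and high class (17.9 to 33.8) overlapped. Among promoters with H2A.Z WT, H2A.Z AP3 was called at 18.3%, 38.2% and 33.7%, from low to high.

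Within a class the gap to protein-coding promoters changed. In the low class H2A.Z WT was called at 22.7% of protein-coding promoters, and the difference of 1.23 points (-3.38 to 6.48) included 0. In the middle class the lincRNA share was lower, by -14.0 points (-20.9 to -7.22). In the high class the difference was -6.54 points (-15.4 to 0.718). For H2A.Z AP3 the intervals of all 3 classes included 0. For H2A.Z WT the interval of the difference lay below 0 in the middle class only.

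H3K27me3 differed in the opposite direction in the CpG-rich class. There it was called at 41 of 112 lincRNA promoters (36.6%, 28.3 to 45.8) and 23.8% of 10278 protein-coding promoters, a difference of 12.85 points (4.47 to 22.1), with the lincRNA share higher on 14 of 20 chromosomes. In the middle class it was called at 17.7% of lincRNA and 22.7% of coding promoters, and the difference of -4.999 points had an interval (-9.73 to 0.860) that included 0. When starts inside protein-coding gene bodies were left out, an alternative chosen after seeing the data, the share in the CpG-rich class was 32.3% and the difference 8.53 points, with an interval (-0.0242 to 18.4) that just included 0. Non-promoter tiles of the same CpG class, 1831 in all, were called for H3K27me3 at 13.6%.

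**Figure D1:**
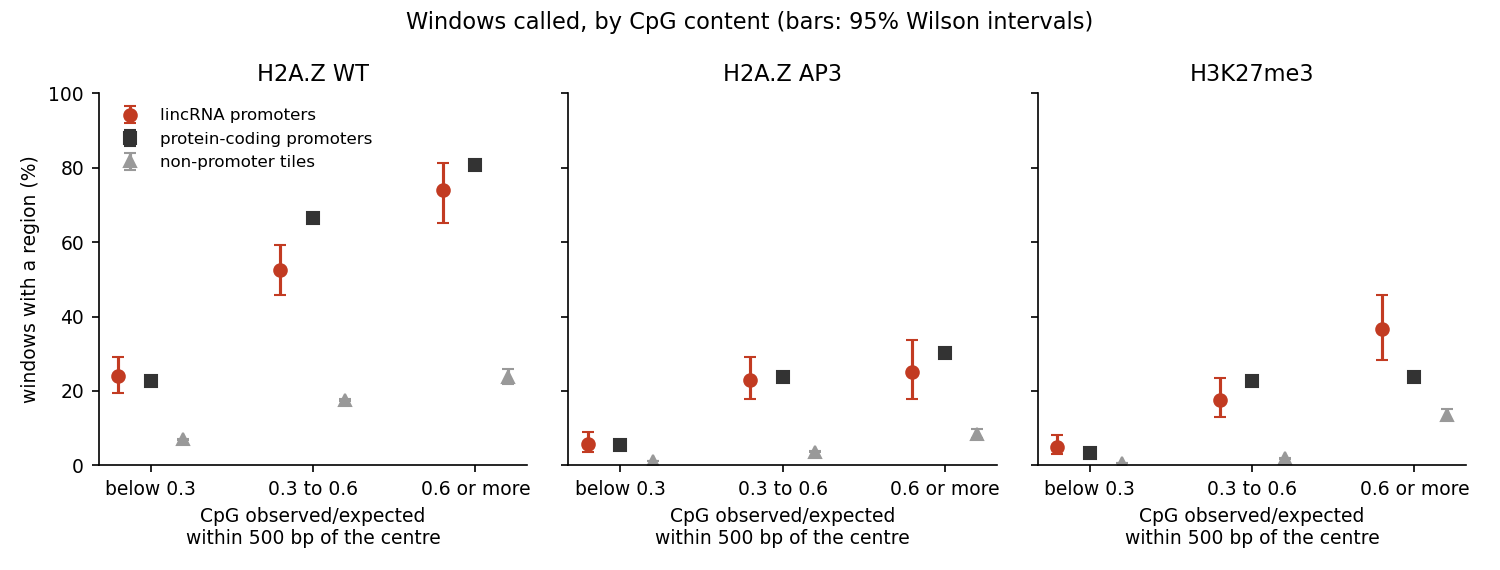
Share of windows with at least 1 bp in a region at 1e-9 (percent, y axis) by CpG observed over expected (x axis) for lincRNA promoters (circles), protein-coding promoters (squares) and non-promoter tiles (triangles), 1 panel per library, with 95% Wilson intervals as bars. Shares rise with CpG content in every panel, and in the class of 0.6 or more the lincRNA promoters lie below the coding ones for H2A.Z WT (74.1% and 80.65%) and above them for H3K27me3 (36.6% and 23.8%).

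Where regions lay relative to the start was then compared. H2A.Z WT coverage of lincRNA starts was highest 100 bp downstream, where 21.2% of members lay in a region, and at protein-coding starts it was highest 175 bp downstream, at 35.9%. The mean over 1 kb downstream was 1.45 times that over 1 kb upstream at lincRNA starts and 1.84 times at coding starts. Among CpG-rich promoters the peaks were of near height, 50% at lincRNA and 51.7% at coding starts. H2A.Z AP3 coverage peaked alike at 125 and 150 bp downstream of lincRNA starts, at 5.34%. At the start itself it covered 4.69% of lincRNA and 2.54% of coding promoters. The lincRNA value at the start rests on 29 members.

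H3K27me3 spread more broadly. It was highest alike at 750, 850 and 925 bp downstream of lincRNA starts, where 7.93% were covered. At coding starts it was highest 975 bp downstream, at 7.87%. At CpG-rich lincRNA promoters the maximum was 25.9%, against 12.35% at CpG-rich coding promoters. Of the called members, the start itself lay in a region at 110 of 264 (H2A.Z WT), 29 of 93 (H2A.Z AP3) and 30 of 93 (H3K27me3).

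**Figure D2:**
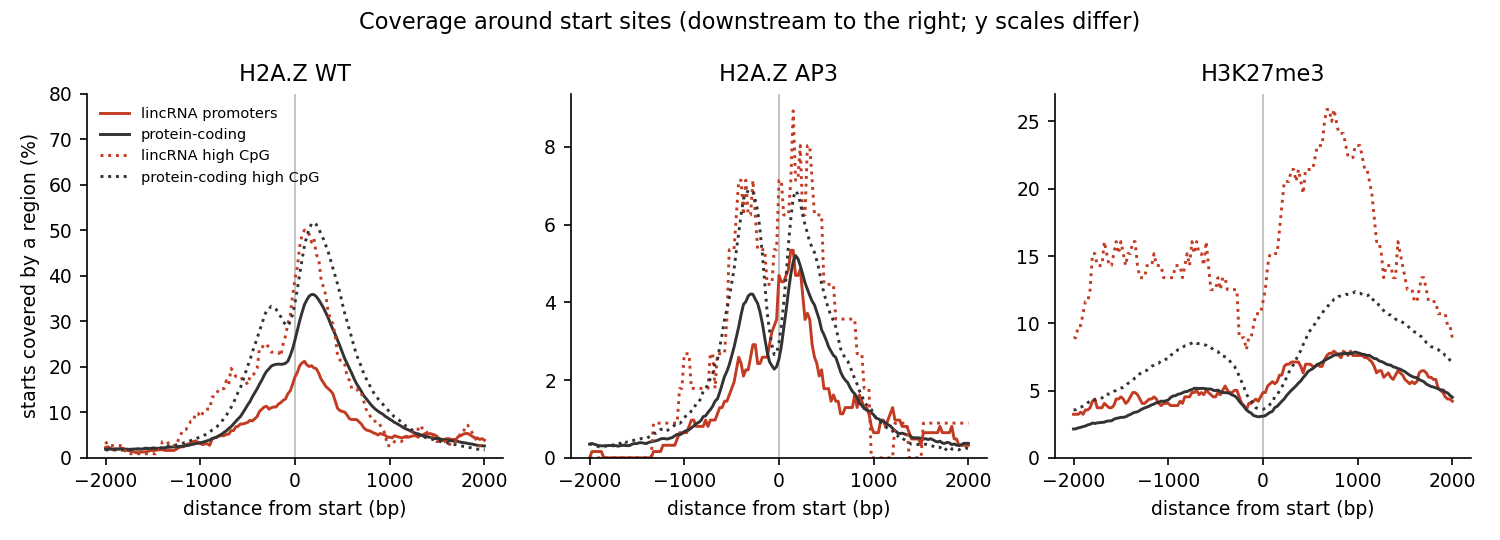
Percent of starts covered by a region at 1e-9 (y axis, scales differ between panels) against distance from the start in bp (x axis, downstream to the right) for lincRNA and protein-coding promoters, all (solid) and with CpG observed over expected of 0.6 or more (dotted). H2A.Z WT coverage of lincRNA starts peaks at 21.2% 100 bp downstream, and H3K27me3 coverage of CpG-rich lincRNA starts reaches 25.9%, above that of CpG-rich coding starts (12.35%).

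The 3 lists divided the members into few combinations. H2A.Z WT alone was called at 131 members, with H2A.Z AP3 at 58, with H3K27me3 at 50 and with both at 25. H2A.Z AP3 was called alone at 10 members and H3K27me3 alone at 18. No member carried H2A.Z AP3 and H3K27me3 without H2A.Z WT, which allows a share of up to 0.485%. Where called, a library covered a median of 500 bp (H2A.Z WT, quartiles 250 and 881), 250 bp (H2A.Z AP3) or 1325 bp (H3K27me3).

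**Figure D3:**
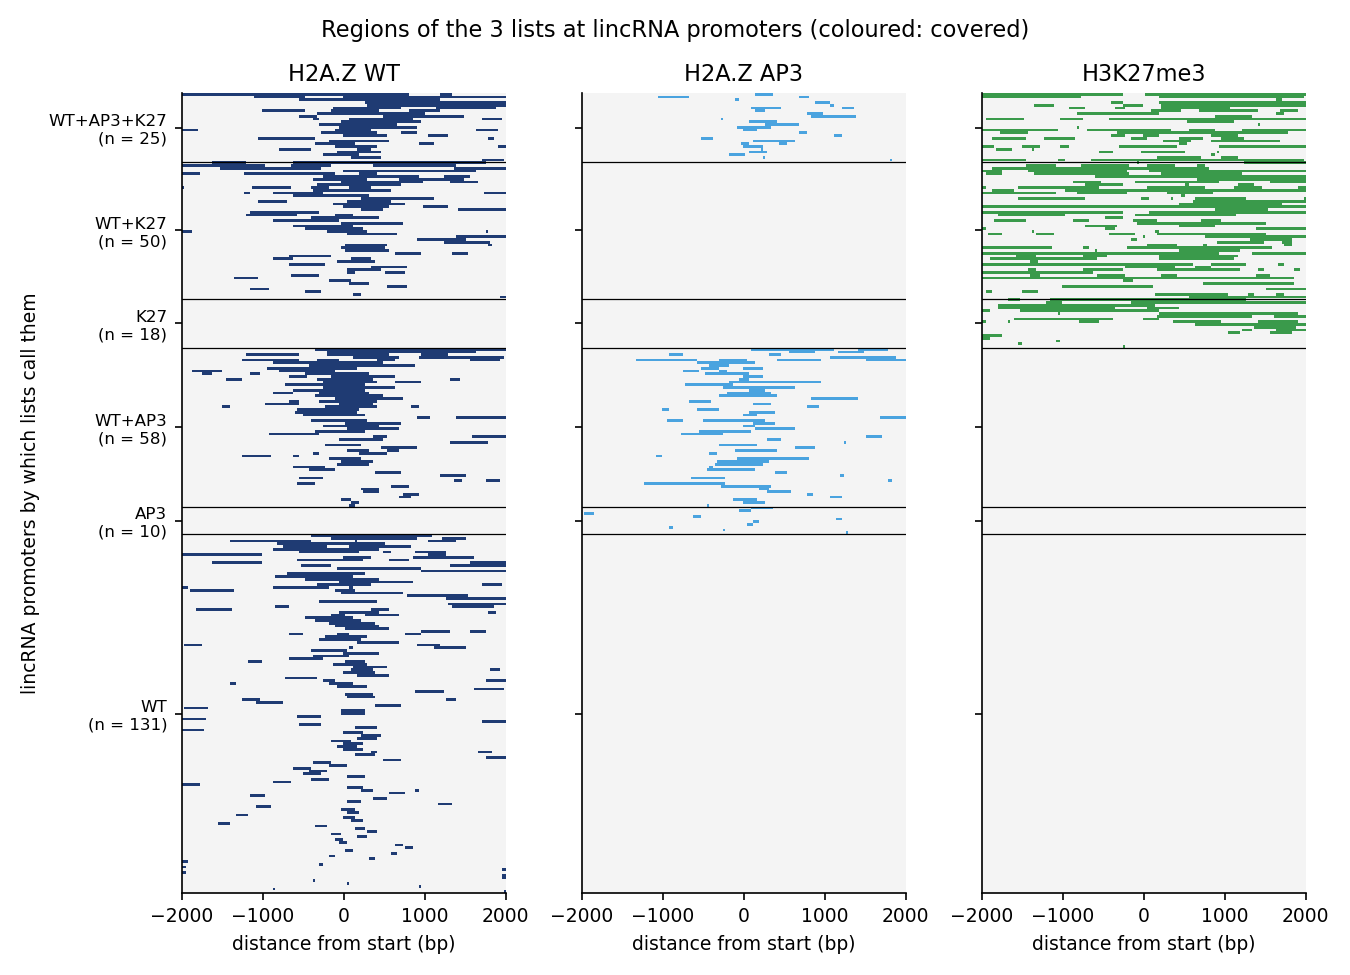
Position of regions at 1e-9 (coloured) in the windows of the 292 lincRNA promoters called for at least 1 library, 1 row per promoter and 1 panel per library, against distance from the start in bp, ordered by which lists call them. H2A.Z WT regions gather just downstream of the start, whereas H3K27me3 regions extend across much of the window in the 93 promoters that have them.

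The comparison of H2A.Z AP3 with H2A.Z WT asked where the mutant was found among the promoters of the wild-type protein. Of the 264 promoters with H2A.Z WT, 83 were also called in the mutant library (31.4%, 26.1 to 37.3). At protein-coding promoters the share was 33.05%, and the difference of -1.61 points (-6.97 to 4.28) included 0. The share was 13.4% where H2A.Z WT covered under 300 bp, 30.1% from 300 bp to under 700 bp and 47.5% at 700 bp or more. Coding promoters gave 15.1%, 29.1% and 44.8% in the same classes, so that the mutant was called more often where the wild-type protein covered more sequence at both kinds of promoter. Conversely, 83 of the 93 promoters with H2A.Z AP3 (89.2%) had H2A.Z WT.

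At most promoters with both forms the mutant covered less sequence. H2A.Z AP3 covered fewer bases than H2A.Z WT at 65 of 83, the same number at 2 and more at 16, with a median of 40.6% of the H2A.Z WT length (31.0% at 4350 coding promoters). Summed over all members, the bases covered by H2A.Z AP3 amounted to 19.5% of those covered by H2A.Z WT, against 15.0% at coding promoters and 11.03% in tiles. The 10 promoters with H2A.Z AP3 alone had short regions of 25 to 275 bp with a median of 75 bp. The longest of them was at Gm8705, and 2 of the 10, Gm8378 and 1700066J03Rik, had H2A.Z WT in the list at 1e-12. These 3 genes were named after their values were seen. Since read depth is unknown, these lengths compare lists and do not measure amounts of bound protein.

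The 8 members with most H2A.Z AP3 all had H2A.Z WT. H3K27me3 was called at 0 of the 8, which allows a share of up to 37.5%, where 30.1% of the 83 promoters with both forms of H2A.Z had it. The 8 were chosen by length and are not a random sample, so this limit is a rough guide only. Gm17395 (chromosome 6, 17455 bp from the lectin-like receptor gene Klrb1b) was covered over 2129 bp by H2A.Z AP3 and 1575 bp by H2A.Z WT. F630040L22Rik, in an intron on chromosome 9, had 1400 bp of H2A.Z AP3 and 2371 bp of H2A.Z WT. At 1700023L04Rik, upstream of the gene for the transcription factor Nrf1, the lengths were 1150 and 1000 bp. The mutant therefore covered more sequence than the wild-type protein at 2 of these 3 genes. 4933440J02Rik had 1000 bp of H2A.Z AP3 and 225 bp of H2A.Z WT, and A230087F16Rik had 900 and 400 bp. Abhd1, a symbol of a hydrolase family that the annotation types as lincRNA, had 975 and 700 bp, Gm17519 had 900 bp of each, and 9530026P05Rik had 825 and 1625 bp. The mutant thus covered more sequence than the wild-type protein at 5 of these 8 members. Their choice by H2A.Z AP3 length favours this order. Over all 83 promoters with both forms, the mutant covered more sequence at 16. In the lists at 1e-12 it did so at 4 of the 8 members. The order turned at A230087F16Rik (275 bp of H2A.Z AP3 and 550 bp of H2A.Z WT), Abhd1 (525 and 675 bp) and 9530026P05Rik (1225 and 975 bp), while Gm17519 had 175 and 875 bp.

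Of those 8 members, 4 lay on chromosome 6. On chromosomes 6 and 8 together, 23.6% of 55 members had H2A.Z AP3, and on the other autosomes 14.7% of 538, a difference of 8.95 points (-0.868 to 21.96). Given H2A.Z WT, the shares were 44.8% and 29.9%, with a difference of 15.0 points (-2.59 to 33.4), while at coding promoters they were 59.9% and 29.75%. Of the 27 members with 500 bp or more of H2A.Z AP3, 8 (29.6%) lay on these 2 chromosomes, which held 8.90% of all members. The part of chromosomes 6 and 8 in the H2A.Z AP3 lengths was not tested. The X chromosome held 25 members, of which 4 (16%) had H2A.Z WT, 1 (4%) had H2A.Z AP3 and 2 (8%) had H3K27me3. Among the 932 coding promoters of the X the shares were 31.8%, 5.15% and 6.01%.

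**Figure D4:**
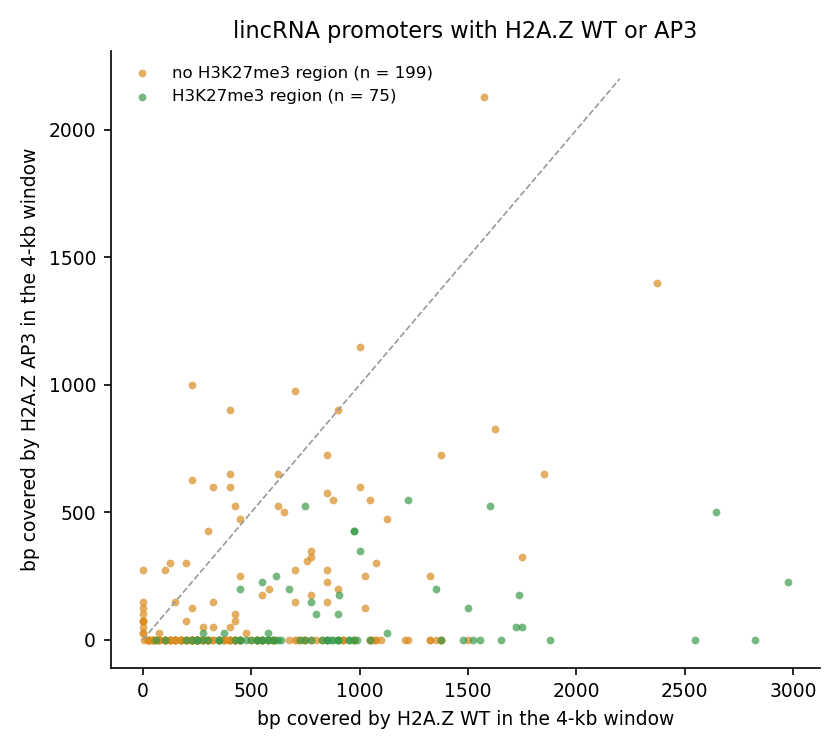
Bases covered by H2A.Z AP3 (y axis, bp) against bases covered by H2A.Z WT (x axis, bp) at the lincRNA promoters called for either, 75 with an H3K27me3 region and 199 without, with the line of equal length dashed. Most promoters lie below the line, and the 8 highest values of H2A.Z AP3 run from 825 to 2129 bp.

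H3K27me3 was compared with H2A.Z WT to ask which lincRNA promoters were called for both. Of the 264 promoters with H2A.Z WT, 75 had H3K27me3 (28.4%, 23.3 to 34.1), against 26.9% of coding promoters. Seen from the other side, 75 of the 93 promoters with H3K27me3 (80.65%, 71.5 to 87.4) had H2A.Z WT, against 93.8% at coding promoters, a difference of -13.2 points (-22.4 to -6.39). The 18 lincRNA promoters with H3K27me3 alone had a median of 1386 bp of it, near the 1275 bp of the 75 that had both, and 4 of the 18 had 100 bp or less. In the list at 1e-12, 2 of these 18, A030009H04Rik (1200 bp) and Tdrd5 (650 bp), had H2A.Z WT. Both were named after their values were seen.

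The mutant was found at 33.3% of the 75 promoters that had H2A.Z WT together with H3K27me3, and at 30.7% of the 189 with H2A.Z WT and no H3K27me3. The difference of 2.65 points had an interval of -9.20 to 15.5, which included 0. The corresponding shares at coding promoters were 41.4% and 30.0%. The H3K27me3 library came from cells labelled WT and not from the mutant cells. A promoter called for H3K27me3 and the mutant was therefore not shown to carry both in the same cells. Where H2A.Z WT covered 700 bp or more, the mutant was called at 18 of 43 lincRNA promoters with H3K27me3 and 29 of 56 without. Its regions were shorter with H3K27me3, with a median of 200 bp at 25 promoters where H2A.Z WT had a median of 975 bp, and 316.5 bp at 58 promoters without H3K27me3 where H2A.Z WT had 675 bp. Of the 27 members with at least 500 bp of H2A.Z AP3, 4 (14.8%) had H3K27me3. The share was 30.1% among the 83 promoters with both forms of H2A.Z, which include these 27, and 15.05% among all members. No interval was computed for this contrast.

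H3K27me3 covered 2000 bp or more at 26 members, of which 24 had H2A.Z WT and 8 had H2A.Z AP3, the latter over at most 500 bp. None of the 26 was in the low CpG class, 11 were in the middle and 15 in the high class. The 8 members with most H3K27me3 were covered over 3261 to 4001 bp, and all had H2A.Z WT. Six3os1 was covered over the whole window of 4001 bp by H3K27me3 and over 875 bp by H2A.Z WT, with no H2A.Z AP3. Dlx1as had 3873 and 300 bp of these marks, also without H2A.Z AP3. A430072P03Rik, 105095 bp from any coding start, had 3726 bp of H3K27me3, 2974 bp of H2A.Z WT, the most of any member, and 225 bp of H2A.Z AP3.

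The others in this group were AI854517 (3676 bp), Gm13429 (3601 bp), Gm3764 (3401 bp), AW047730 (3270 bp) and 5033428I22Rik (3261 bp), where the length in parentheses is that of H3K27me3. Their H2A.Z WT lengths ran from 275 bp at 5033428I22Rik to 1650 bp at Gm3764. Gm3764 and AW047730 lie in the same stretch of chromosome 3, with starts at 88018407 and 88004545, and are not independent examples. Among the 8 members with most H2A.Z WT, 5 had H3K27me3. Besides A430072P03Rik these were Gm10425 (2825 bp of H2A.Z WT and 794 bp of H3K27me3), Gm17242 (2643 and 3008 bp), Gm16600 (2545 and 1425 bp) and 9530082P21Rik (1876 and 2700 bp). F630040L22Rik (2371 bp), Gm17470 (1850 bp) and Gm16908 (1750 bp) had H2A.Z WT and H2A.Z AP3 without H3K27me3, although Gm17470 had 675 bp of it in the list at 1e-12.

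Genes of developmental transcription factors are a main class of Polycomb targets in ESCs, and lincRNAs often lie beside them. A list of factor families was used to find the 15 members whose nearest protein-coding start, within 50 kb, belonged to such a gene. H3K27me3 was called at 11 of these 15 (73.3%, 48.05 to 89.1) and at 56 of the 427 members within 50 kb of another coding gene (13.1%), a difference of 60.2 points (34.7 to 76.25). H2A.Z WT was called at 11 of 15 as well, against 40.75%, with a difference of 32.6 points (6.86 to 49.0). H2A.Z AP3 regions lay at 4 of 15, over at most 225 bp, against 14.5%, and the interval of that difference (-4.04 to 37.6) included 0. H3K27me3 and H2A.Z WT were therefore called more often beside these genes, and 10 of the 11 members with H3K27me3 were called for both. Without the limit of 50 kb there were 19 such members, of which 12 had H3K27me3 (63.2%) and 15 had H2A.Z WT (78.95%).

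The contrast was also counted within CpG classes. In the low CpG class, H3K27me3 was called at 1 of 3 members beside a factor gene and at 4.76% of the 294 others. In the middle class it was called at 7 of 8 and 14.9% of 201, and in the high class at 3 of 4 and 35.2% of 108. Of the 8 members beside a factor gene that started outside coding gene bodies, 6 had H3K27me3. Of the 11 members more than 4 kb from the factor's start, 8 had H3K27me3, so calls were not limited to windows that reach the coding promoter's own window. These members lie inside larger gene clusters and broad domains in several cases, and whether the lincRNA start or the neighbouring gene carried the domain was not tested.

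The members beside factor genes with most H3K27me3 came from several families. Six3os1 lies 2447 bp from Six3, a homeobox gene of forebrain and eye development. Dlx1as lies 7111 bp from Dlx1, a homeobox gene of forebrain interneurons. 5033428I22Rik lies 11135 bp from Hand2, a basic helix-loop-helix gene of heart and limb, and had 3261 bp of H3K27me3, 275 bp of H2A.Z WT and 25 bp of H2A.Z AP3. Nkx2-2as, antisense to the ventral neural tube gene Nkx2-2, had 3101, 907 and 175 bp, in the same order.

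Gm11538 beside Hoxb13 had 2733 bp of H3K27me3 and 550 bp of H2A.Z WT. B230323A14Rik beside the forkhead gene Foxb1 had 2297 and 1722 bp, with 50 bp of H2A.Z AP3. 1810010K12Rik beside the pancreatic factor gene Ptf1a had 1580 and 900 bp. 1700109F18Rik beside Hoxd3 had 776 and 725 bp, Gm16702 nearest to the mesodermal gene T had 750 and 550 bp, with 225 bp of H2A.Z AP3, and Gm17696 beside Barhl2 had 525 and 575 bp. The members that fell below these were 4930550C17Rik beside Neurog1, with 76 bp of H3K27me3 and no H2A.Z, and Gm17325 beside Neurod1, with 775 bp of H2A.Z WT alone and 75 bp of H3K27me3 in the list at 1e-12 only. Gm17419 beside Sox4, Gm17698 beside Prrx1 and Gm16065 beside Tbx3 had no call. These 5 are given to complete the group.

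A further member, 9530036O11Rik, lies 8827 bp from Shh, a signalling ligand gene and so not in the list of factors. It had 3189 bp of H3K27me3, 1125 bp of H2A.Z WT and 25 bp of H2A.Z AP3, and was named after its values were seen.

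**Figure D5:**
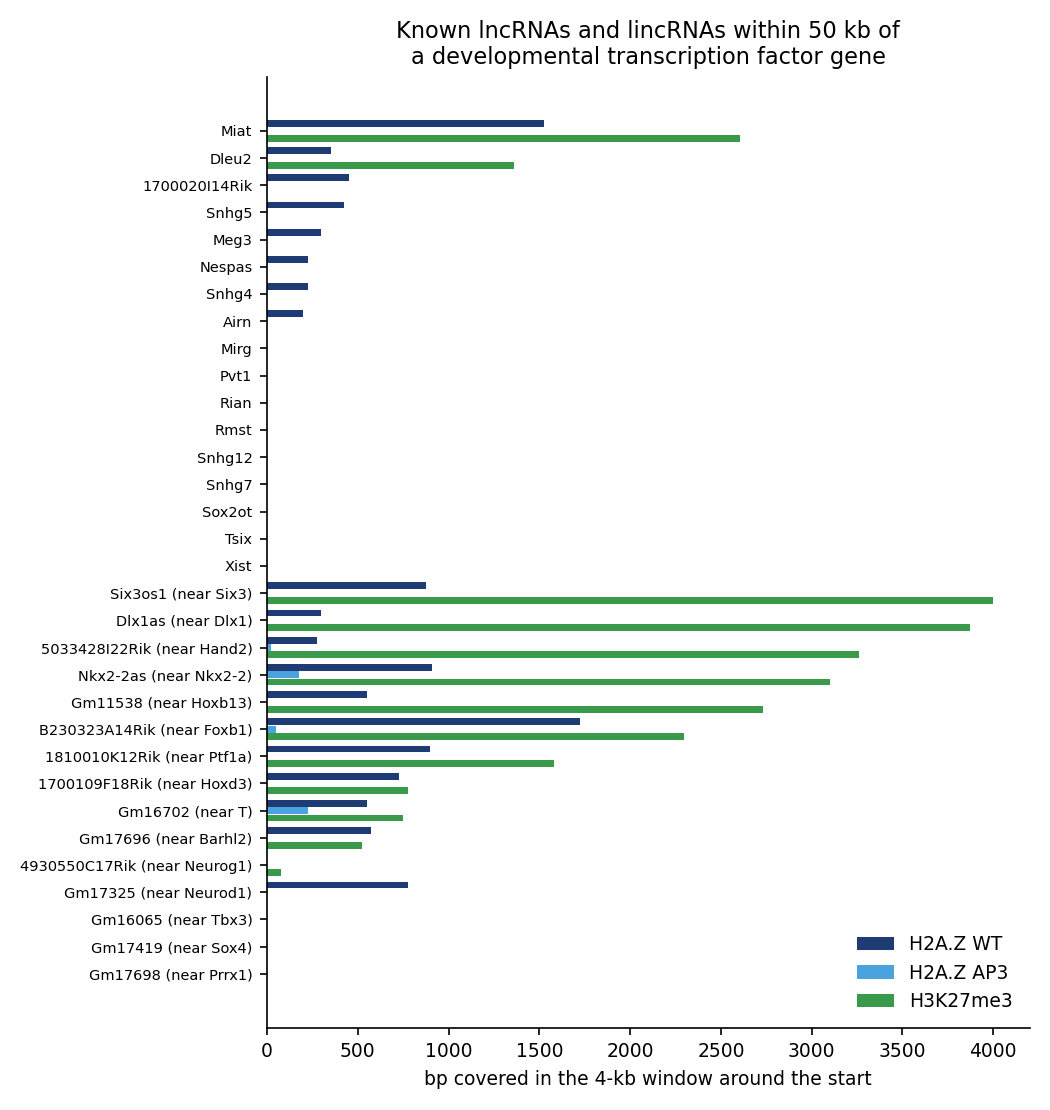
Bases covered in the window of 4001 bp (x axis) by each library at lincRNAs with a known name and at those within 50 kb of a developmental transcription factor gene (y axis). H3K27me3 is longest at Six3os1 (4001 bp) and Dlx1as (3873 bp), 9 known lincRNAs have no call, and the H2A.Z AP3 bars reach at most 225 bp.

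LincRNAs with known names were looked up from a list of 60 symbols, of which 31 were in the annotation and 9 of these had another gene type. Of the 22 typed lincRNA, Gas5, Tug1 and Snhg1 lay within 2 kb of a coding start and 19 were members. H2A.Z WT was called at 10 of 19 (52.6%, 31.7 to 72.7) and H3K27me3 at 4 (21.1%, 8.51 to 43.3). Both intervals included the shares of the other 599 members, 42.4% and 14.9%. H2A.Z AP3 regions lay at 0 of 19, which allows a share of up to 15.8%, although Snhg7 had 400 bp of it in the list at 1e-12. The 4 with H3K27me3 were Six3os1, Dlx1as, Miat and Dleu2. Miat, a nuclear RNA of neurons, had 2608 bp of H3K27me3 and 1525 bp of H2A.Z WT, and Dleu2, a host of microRNAs, had 1362 and 350 bp.

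Known lincRNAs of imprinted clusters had short H2A.Z WT regions or none. Meg3, expressed from the maternal allele, had 300 bp of H2A.Z WT. Nespas, antisense in the Gnas cluster, had 225 bp, and Airn, antisense to Igf2r, had 200 bp. None of these 3 had H3K27me3. Rian and Mirg, downstream of Meg3 in the same cluster, had no call and low CpG content, 0.0676 and 0.287. The remaining promoters with H2A.Z WT alone were 1700020I14Rik (450 bp), Snhg5 (425 bp) and Snhg4 (225 bp).

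No library was called at 9 known lincRNAs. Xist, the RNA that coats the inactive X chromosome, and its antisense Tsix had no call, in cells whose V6.5 strain the labels describe as male. Sox2ot and Rmst, which lie in low CpG sequence at these starts (0.217 and 0.169), had none either. The values refer to the most upstream annotated start of each gene only. Snhg7, Snhg12, Pvt1, Rian and Mirg made up the rest, and Pvt1 (200 bp) and Snhg7 (275 bp) had H2A.Z WT in the list at 1e-12. Low CpG content was not shared by all 9. Xist (0.738), Snhg7 (0.734) and Snhg12 (0.714) were in the high CpG class, and Tsix (0.534) and Pvt1 (0.514) in the middle class.

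MicroRNAs are cut from longer transcripts, many of them noncoding, and the promoter of the host then drives the microRNA. An annotated microRNA gene lay on the same strand inside 26 members. H3K27me3 was called at 9 of these (34.6%) and at 14.5% of the 579 members that host no small RNA, a difference of 20.1 points (4.59 to 39.45). H2A.Z WT was called at 14 and H2A.Z AP3 at 5, with differences of 11.4 points (-7.47 to 29.2) and 4.03 points (-7.15 to 22.9) whose intervals included 0. By CpG class, H3K27me3 was called at 0 of 11 hosts in the low class, which allows a share of up to 27.3%. It was called at 3 of 4 hosts in the middle and 6 of 11 in the high class. All members of these classes had it at 5.05%, 17.7% and 36.6%, from low to high. The high class held 11 of the 26 hosts and 18.1% of all members. The part of CpG content in the difference between hosts and other members was not tested.

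Of the hosts, 14 held a microRNA with a Mir symbol, and 5 of those had H3K27me3. A930011O12Rik, the host of Mir124a-1, had 2124 bp of H3K27me3 and 952 bp of H2A.Z WT. 1700016P03Rik, the host of Mir132 and Mir212, had 1850 bp of H3K27me3 and no H2A.Z. D030055H07Rik, the host of Mir135a-1, had 1325 bp of H3K27me3, 1500 bp of H2A.Z WT and 125 bp of H2A.Z AP3.
C130071C03Rik, the host of Mir9-2, had 850 bp of H3K27me3 and 350 bp of H2A.Z WT. A330023F24Rik, the host of Mir29b-2 and Mir29c, had only 25 bp of H3K27me3 beside 975 bp of H2A.Z WT and 425 bp of H2A.Z AP3. These 5 hosts were named after their values were seen. miR-9, miR-124 and miR-132 are known as microRNAs of neurons. Mature sequences of 6 of their 7 microRNA genes were found in RefSeq (GRCm38.p6) and are shown with the seed, bases 2 to 8, in capitals, because the seed determines which targets are paired.
mmu-miR-132-3p: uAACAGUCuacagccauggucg
mmu-miR-212-3p: uAACAGUCuccagucacggcca
mmu-miR-29b-3p: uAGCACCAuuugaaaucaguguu
mmu-miR-29c-3p: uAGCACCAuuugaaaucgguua
mmu-miR-9-5p: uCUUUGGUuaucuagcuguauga
mmu-miR-135a-5p: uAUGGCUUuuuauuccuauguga
miR-132 and miR-212 share 1 seed and 1 host promoter, as do miR-29b and miR-29c.

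Hosts of snoRNAs, the small RNAs that guide modification of ribosomal RNA, were counted in the same way. Of 14 members with a snoRNA gene on the same strand, 4 had H2A.Z WT (28.6%) over 175 to 425 bp, and H2A.Z AP3 and H3K27me3 were called at 0, which allows a share of up to 21.4% for each. The members that host no small RNA had H2A.Z WT at 42.5%, H2A.Z AP3 at 15.2% and H3K27me3 at 14.5%. The intervals of all 3 differences included 0, the one for H2A.Z WT being -31.3 to 12.5 points. Among members of the high CpG class, a contrast added after the values were seen, H2A.Z WT was called at 3 of 11 snoRNA hosts and at 78.9% of the 90 members without a small RNA, a difference of -51.6 points (-70.55 to -20.8). The 11 hosts were not all independent. Gm17683 and 9430037G07Rik, both uncalled, start at 88494494 and 88494354 on chromosome 9, so their windows overlap. Both hold a SNORD50 gene, as do Snhg5 and 9330159M07Rik, which were called, on the same chromosome. Of the uncalled hosts, Snhg7 (275 bp) and 9430008C03Rik (200 bp) had H2A.Z WT in the list at 1e-12, and the others had none. These hosts were named after their values were seen. Rian held both kinds of small RNA and is counted in both groups.

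H2A.Z was called more often at members that started outside protein-coding genes. An H2A.Z WT region lay at 49.1% of these 391 members and 31.7% of the 227 that started inside, a difference of 17.4 points (9.38 to 24.9). For H2A.Z AP3 the shares were 17.9% and 10.1%, with a difference of 7.77 points (1.99 to 13.03). For H3K27me3 they were 15.6% and 14.1%, with an interval (-4.57 to 7.06) that included 0. CpG content differed between the 2 groups, since the high class held 96 of the 391 members outside and 16 of the 227 inside. Within CpG classes, a contrast added after the values were seen, the H2A.Z WT difference was 8.11 points in the low class (-1.66 to 17.5), 11.4 in the middle (-2.72 to 24.95) and -1.04 in the high class (-18.7 to 24.65). All 3 intervals included 0, as did those for H2A.Z AP3, whose difference was 5.28 points in the low, 10.03 in the middle and -21.9 in the high class. By distance, the 73 members 2 to 4 kb from a coding start had the highest H2A.Z WT (53.4%) and H3K27me3 (27.4%) shares. Beyond 4 kb, classes of distance gave 36.1% to 46.05% for H2A.Z WT and 12.4% to 20.8% for H3K27me3 without a steady order. Orientation relative to the nearest coding gene gave overlapping intervals for H2A.Z WT, from 39.75% of 239 members on the opposite strand downstream to 53.5% of 86 on the same strand upstream.

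The stricter lists kept most calls. A region at 1e-12 was also present at 240 of 264 members called for H2A.Z WT (90.9%), 82 of 93 for H3K27me3 (88.2%) and 62 of 93 for H2A.Z AP3 (66.7%). The lists give no measure of enrichment height, and the share kept depends on read depth, which is unknown.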

How the data were processed

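The authors aligned single-end reads to mm9 with Bowtie 0.12.3, extended them, counted them in bins of 25 bp and called enriched bins in each library separately with a Poisson model at a P threshold of 1e-9 and a minimal fold over input. The deposited values used here are coordinates (start and end) of enriched regions, with no count, height or p-value, so depth is unknown. The methods do not describe the second list, named 1e-12, and it served as an alternative only. Groups came from the genotype and antibody labels.

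Overlaps of 1-based regions with windows of 2 kb on each side of GENCODE vM1 starts were counted in Python 3.11.15 with NumPy 2.4.6 and pandas 2.3.3. CpG content came from the mm9 sequence, read with pysam 0.24.0 after indexing with samtools 1.23.1, and figures were drawn with Matplotlib 3.10.9. Protein-coding promoters used the most upstream start of each of 22342 genes. Tiles were consecutive windows of the same scheme away from protein-coding and lincRNA starts. Wilson and Newcombe 95% intervals cover counting error only. The overlap counts and intervals were tested on simulated data.

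Members, gene lists and contrasts were chosen with earlier results of these data known. Named were the 8 members with most covered bases in each list, members on a list of known lincRNA symbols, and up to 10 members within 50 kb of a developmental transcription factor gene with most H3K27me3. The text says where others are named. Alternatives were the 1e-12 lists, windows of 1 and 5 kb, any start of the gene, a distance over 4 kb, coverage of at least 100 bp, chromosomes 6 and 8 omitted and shared windows joined. Those added after seeing the data were starts outside coding gene bodies, starts over 2 kb from any start of a coding gene, and their use for the H3K27me3 shares at CpG-rich promoters and beside factor genes.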

Additional observations from a re-analysis of the deposited data

Results flagged for a closer look

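The list at 1e-12 held regions at lincRNA promoters that the list at 1e-9 did not, although a stricter list should be contained in the other. The shares at 1e-9 do not count these regions, whereas the alternative with the lists at 1e-12 does. For H2A.Z WT this concerned 19 of 618 promoters (3.07%), with a median of 200 bp and a range of 25 to 1200 bp, the longest at A030009H04Rik. For H2A.Z AP3 it concerned 15 (2.43%), with a median of 150 bp and a range of 25 to 400 bp, the longest at Snhg7, and 12 of the 15 had H2A.Z WT at 1e-9. For H3K27me3 it concerned 3 promoters, all of which had H2A.Z WT at 1e-9. The cause was not tested.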

How the results depend on the processing

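Across 7 results under 10 alternatives each, 63 of 70 values moved by less than their counting interval and 7 moved by more. With a window of 5 kb 55.7% of lincRNA promoters had H2A.Z WT, 22.8% had H2A.Z AP3 and 18.4% had H3K27me3, since a longer window can only add calls. Under it, 38.1% of those with H2A.Z WT also had the mutant, and the cause was not tested. With a window of 1 kb the H2A.Z WT share was 37.9%, and with starts outside coding gene bodies it was 49.1%. With at least 100 bp covered the H2A.Z AP3 share was 12%. The share of H2A.Z WT promoters with H3K27me3 ranged from 26.2% to 31.1%, that of H3K27me3 in the CpG-rich class from 32.3% to 37.7% and that beside factor genes from 66.7% to 80%. The difference from coding promoters in the CpG-rich class stayed above 0 in its interval under 9 of 10 alternatives, the exception being starts outside coding gene bodies. No paired analysis was possible because each group held 1 library and no result comes from a test. Depth is unknown, so an uncalled promoter was not shown to lack the mark.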
